A study of Homo sapiens with 6 samples.

Results

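The genes described here lie in 2 stretches of the long arm of chromosome 7 whose transcripts were lower in onvansertib-resistant H526 cells than in parental H526 cells. The stretch called the 7q22-q31 block holds the genes that start between 98.2 and 114.7 Mb of the GRCh38 assembly, and the stretch called the 7q36 block holds those that start at or after 148.9 Mb. A minimum mean normalized value of 10 across the 6 libraries was set, which left 227 members of 16347 genes tested in all, 151 in the 7q22-q31 block and 76 in the 7q36 block. The 150 genes between the blocks that passed the same minimum served as the comparison. The blocks were chosen by the fold changes of these same libraries, so the fold changes and calls of members are given as a description and carry no test.

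H526 is a human small cell lung cancer line, and onvansertib inhibits polo-like kinase 1 (PLK1), a kinase that drives entry into and passage through mitosis. The parental group (libraries 1 to 3) was H526 that was not taken through selection, and the resistant group (libraries 7 to 9) was H526 brought over 1 year from 10 nM to 75 nM onvansertib and then grown at that dose. Both groups share the same cell line and medium, RNA was taken 3 separate times from each, and the resistant cells are 1 derived line, so the spread between libraries is that of repeated harvests and not of separate selections. Whether the resistant line is a clone, and whether the drug was in its medium at harvest, is not given in the sources used here.

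Neighbouring genes on a chromosome arm mostly have unrelated functions, and the blocks hold replication, transcription, vesicle and signalling genes side by side. Many of their products work as 1 subunit of a complex whose other subunits are encoded on other chromosomes. Partner transcripts are therefore set beside those of the members. They need not be a neutral baseline, and some listed partners, such as *KMT2D* and *PRKAG1*, need not be in fixed proportion to the member.

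From the smallest steps of their values, the libraries were estimated to hold between 22316000 and 28498000 reads, a rough figure since not all low values were whole multiples of such a step. Pearson correlations of log2 values lay between 0.982 and 0.985 within groups (6 pairs) and between 0.941 and 0.948 across groups (9 pairs). *POU2F3*, which defines the tuft-cell-like class of this cancer, lay between 24511 and 27873 in all 6 libraries, and *NEUROD1*, which defines another class, reached at most 5.49. *YAP1*, a further class marker, lay between 40.9 and 52.9 in parental and between 92.6 and 121 in resistant libraries, without overlap. The 4 leukocyte markers summed to between 1.10 and 4.48 in every library. The 5 fibroblast markers summed to 142 to 191 in parental and 375 to 599 in resistant libraries, through *COL1A1* and *COL1A2*, and of 3 endothelial markers *CDH5* was at 0 and *PECAM1* at or under 0.198 in every library while *VWF* lay between 244 and 339 in parental and between 452 and 491 in resistant libraries. The part of these in the results below was not tested.

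Promoter sequences are shown for 4 members that stand for the patterns described below, chosen after their values were seen: *ACTL6B*, which was listed at 0 in every resistant library, *COPS6*, a housekeeping gene beside *MCM7* that was lower, *EN2*, a homeobox gene of the 7q36 block that was lower, and *VIPR2*, which was higher. Each is the 250 bases before the RefSeq start (GRCh38.p14), printed on the gene's own strand. Capitals mark CCAAT, a known site of the factor NF-Y that reads ATTGG on the other strand, and GGGCGG, a known site of Sp1 that reads CCGCCC there. Also searched on both strands were the TATA box (TATAAA), the E-box (CACGTG), a site of E2F (TTTCCCGC) and a site of ETS factors (CCGGAAGT).
ACTL6B, chr7:100656449-100656698, minus strand: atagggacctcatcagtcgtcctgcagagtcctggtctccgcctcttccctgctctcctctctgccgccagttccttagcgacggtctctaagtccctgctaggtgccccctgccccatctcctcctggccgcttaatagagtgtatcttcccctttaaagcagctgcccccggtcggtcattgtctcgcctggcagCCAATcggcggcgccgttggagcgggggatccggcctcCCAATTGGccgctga
COPS6, chr7:100088719-100088968, plus strand: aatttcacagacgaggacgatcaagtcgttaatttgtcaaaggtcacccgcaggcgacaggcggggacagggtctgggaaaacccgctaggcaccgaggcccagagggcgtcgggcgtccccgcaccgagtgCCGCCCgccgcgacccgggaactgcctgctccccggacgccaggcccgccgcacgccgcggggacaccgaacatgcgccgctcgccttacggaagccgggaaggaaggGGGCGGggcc
EN2, chr7:155457879-155458128, plus strand: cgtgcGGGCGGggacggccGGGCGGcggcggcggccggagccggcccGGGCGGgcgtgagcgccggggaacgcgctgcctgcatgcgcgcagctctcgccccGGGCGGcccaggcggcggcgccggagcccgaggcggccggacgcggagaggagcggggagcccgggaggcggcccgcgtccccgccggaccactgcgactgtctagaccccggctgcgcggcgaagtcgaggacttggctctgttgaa
VIPR2, chr7:159144868-159145117, minus strand: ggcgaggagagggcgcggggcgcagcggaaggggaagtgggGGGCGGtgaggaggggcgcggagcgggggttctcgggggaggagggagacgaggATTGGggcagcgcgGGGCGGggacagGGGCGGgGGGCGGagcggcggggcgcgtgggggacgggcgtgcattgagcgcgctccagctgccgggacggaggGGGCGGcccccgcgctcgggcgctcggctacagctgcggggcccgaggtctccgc
The *ACTL6B* window held 3 CCAAT matches, 2 of which overlap, and no GGGCGG. The *COPS6* window held 2 GGGCGG matches and the *EN2* window 4. The window of *VIPR2* held 5 GGGCGG matches and 1 CCAAT match, so the member that was higher shared the GGGCGG letters with members that were lower.

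Over the members, 106 of the 151 genes of the 7q22-q31 block and 59 of the 76 of the 7q36 block had a window in the RefSeq table. GGGCGG was found in 65.1% of the first and 72.9% of the second, against 67.5% of the windows of all tested genes, and CCAAT in 35.8% and 35.6% against 35.1%. CCGGAAGT, the core site of ETS factors, was in 13.2% of the windows of the 7q22-q31 block, 1.69% of those of the 7q36 block, 4.46% of those between the blocks and 6.90% of those of all tested genes. Promoters of the 7q36 block were richer in G and C, with a median of 70% and 28 CpG pairs, against 64.8% and 21.5 in the 7q22-q31 block and 65.2% and 21 over all tested genes. These shares describe letters in the windows and were not tested. No one motif of the 6 was in most windows of both blocks and rare elsewhere.

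Transcripts of the 7q22-q31 block were lower in resistant cells across nearly the whole stretch. The median log2 fold change of its 151 members, on the log2(value + 1) scale, was -0.52, a median ratio of 0.699, with quartiles of -0.75 and -0.28. Of these genes 129 were below 0, and in the limma fit over all 16347 genes (adjusted p under 0.05) 90 were called lower and 5 were called higher. Over all genes tested, 19.8% were called lower and 17.8% higher, and since the block was chosen on this contrast nothing is read from the difference between those shares and the block's. Every resistant library lay below every parental library for 97 members, against a background of 25.9% of all tested genes.

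The 7q36 block was lower to a similar degree. Its 76 members had a median of -0.45, a ratio of 0.733, with quartiles of -0.66 and -0.11. Of these, 61 were below 0, 41 were called lower and 2 higher, and 42 had groups that did not overlap with resistant libraries lower. Over all tested genes 19.8% were called lower, 17.8% were called higher and 25.9% had every resistant library below every parental one. This block too was chosen on the contrast, so nothing is read from the difference. In bulk RNA, fewer cells that express a gene and less RNA per cell cannot be told apart, and DNA copies of these genes were not measured.

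The shift was present in each resistant library. Taken as deviations from the parental mean of each gene, the medians of the 7q22-q31 block were -0.54, -0.47 and -0.48 in resistant libraries 7, 8 and 9 and no more than 0.02 from 0 in the parental libraries. Those of the 7q36 block were -0.43, -0.44 and -0.38, against -0.04 to 0.03 in parental libraries. Members of the 7q22-q31 block made up 0.846% to 0.850% of the summed values of tested genes in parental libraries and 0.599% to 0.616% in resistant libraries, and members of the 7q36 block 0.510% to 0.538% and 0.381% to 0.390%. The resistant libraries lay together and apart from the parental libraries in both blocks. The blocks were chosen on these same libraries, so this separation is a description and not a test. Parental medians near 0 follow from taking deviations from the parental mean.

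**Figure D1:**
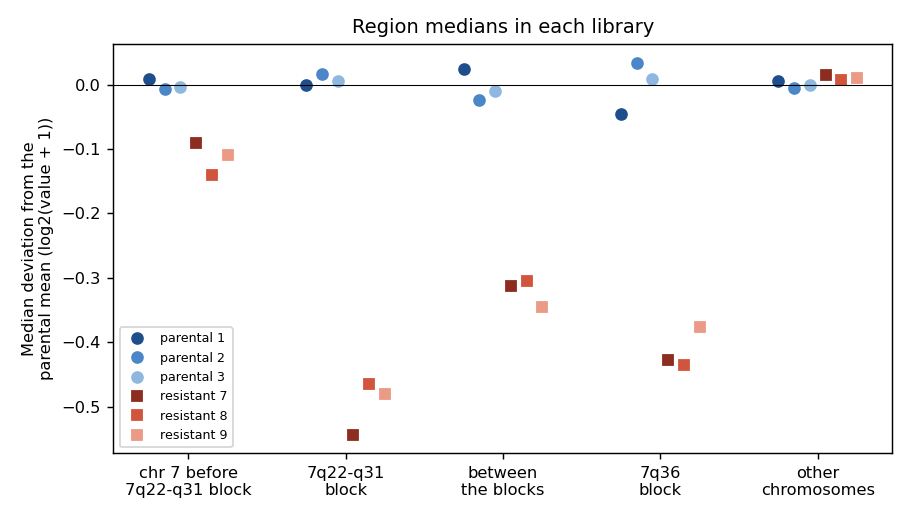
Median deviation from the parental mean (log2(value + 1)) of the genes of each region, with 1 point per library (circles parental, squares resistant). The resistant libraries lie between -0.54 and -0.47 in the 7q22-q31 block and between -0.44 and -0.38 in the 7q36 block, while those of the other chromosomes lie no higher than 0.0146.

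The genes between the blocks were also lower, by less at the median. Their median was -0.29, a ratio of 0.815, with per-library medians of -0.31, -0.30 and -0.35. Of the 150, 106 were below 0, 68 were called lower and 13 higher, beside 19.8% and 17.8% of all tested genes. Much of the gap to the blocks lay in genes with low values. Among genes with a mean of at least 1000, the median was -0.58 in the 7q22-q31 block (53 genes, 52 below 0), -0.51 in the 7q36 block (33 genes, all 33 below 0) and -0.46 between the blocks (58 genes, 54 below 0), against -0.05 on other chromosomes (5396 genes). Among genes with a mean from 10 to 100, the medians were -0.47 (43 genes), 0.02 (17 genes) and 0.26 (44 genes), against 0.24 on other chromosomes (4221 genes). Low genes between the blocks and in the 7q36 block therefore lay near the level of low genes elsewhere or below it, while those of the 7q22-q31 block lay under it.

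**Figure D2:**
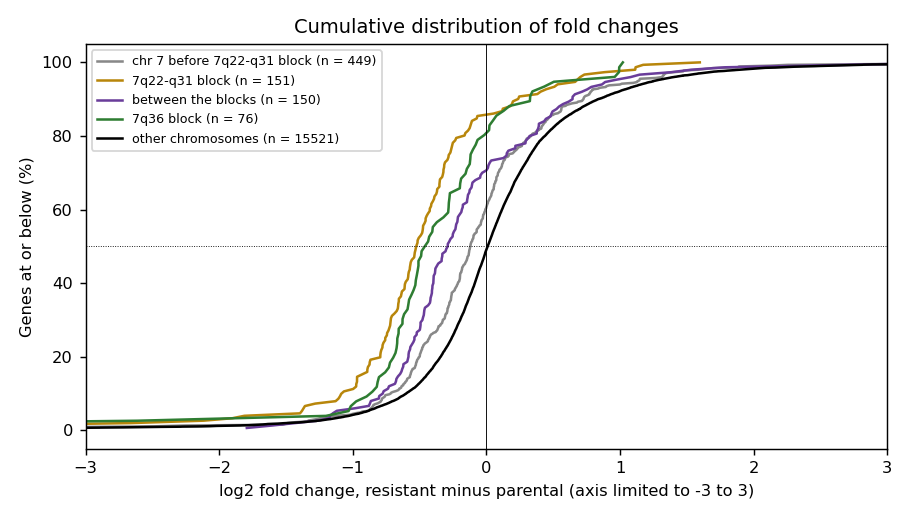
Share of genes at or below each log2 fold change (resistant minus parental, axis limited to -3 to 3) for 5 regions. The curves of the 7q22-q31 and 7q36 blocks cross 50% at -0.52 and -0.45, that of the genes between them at -0.29 and that of other chromosomes at 0.01.

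The lower stretch also began before the 7q22-q31 block. In tiles of 25 neighbouring tested genes, the first 13 tiles of chromosome 7, up to 73.2 Mb, had medians from -0.18 to 0.12, and the 14th, from 73.3 to 74.8 Mb, had a median of -0.52. The next 4 tiles, up to the start of the block, lay at -0.44, -0.42, -0.26 and -0.33, and the tiles of the block at -0.53, -0.52, -0.61, -0.54, -0.48 and -0.47. Between the blocks tiles ranged from -0.38 to -0.14, and the 3 tiles of the 7q36 block lay at -0.37, -0.63 and -0.29. The tile from 150.4 to 152.8 Mb was the lowest of chromosome 7, and at every tile from the 14th on all 3 resistant libraries had a median below 0. Split at the 14th tile, a point chosen after these values were seen, the 325 genes before it had a median of -0.03 and the 124 from it up to the block -0.42. Among genes with a mean of at least 1000 the values were -0.12 (102 genes) and -0.50 (43 genes). The limits at 98.2, 114.7 and 148.9 Mb thus lie within a longer lowered part of the arm, and tiles outside the blocks were as low as some inside them.

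**Figure D3:**
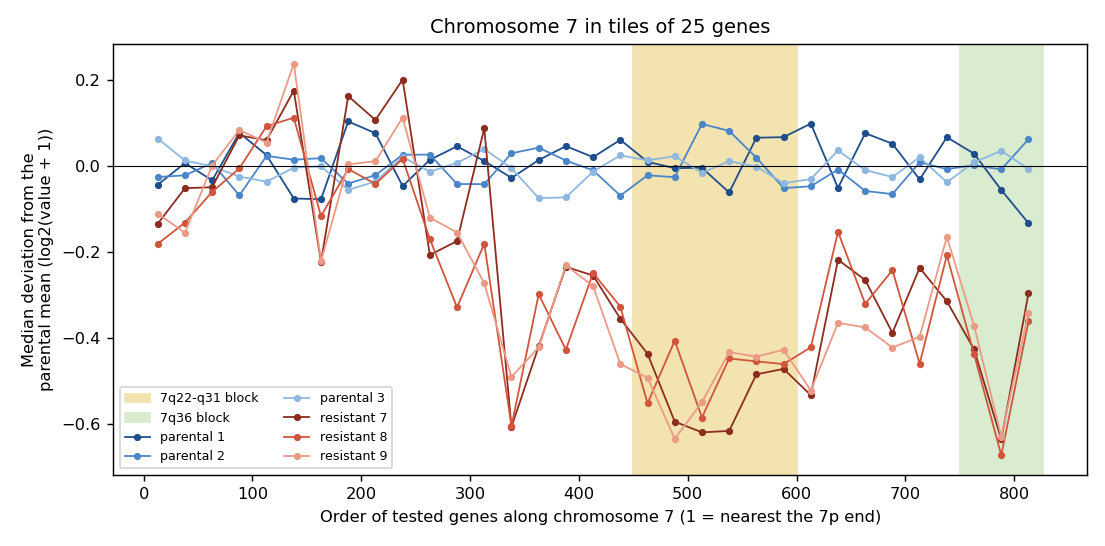
Median deviation from the parental mean (log2(value + 1)) in tiles of 25 tested genes, in their order along chromosome 7, with 1 line per library and the blocks shaded. From the 14th tile on, which starts at 73.3 Mb, all 3 resistant libraries lie below 0. They reach a tile median fold change of -0.61 in the 7q22-q31 block and -0.63 in the 7q36 block.

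The genes on either side of each limit are single genes, some at low values, and do not show the shape of an edge. At the first limit *LMTK2*, just outside, had a mean of 3117 ± 154 in parental and 2514 ± 69.3 in resistant libraries (SD, n = 3 each; log2 fold change -0.31), and *BHLHA15*, just inside, 141 ± 21.3 and 96.5 ± 14.3 (-0.54). At the second, *FOXP2* inside was at 15.6 ± 8.49 and 27.7 ± 8.02 (0.89), and *MDFIC* outside at 27.8 ± 13.0 and 31.9 ± 28.6 (-0.05). At the third limit the gene outside, *EZH2*, which encodes the histone methyltransferase of PRC2, fell within the genes between the blocks. *EZH2* was at 5940, 5332 and 5749 in parental and 3653, 3215 and 3351 in resistant libraries, a log2 fold change of -0.74, lower than the median of either block. *GHET1*, a non-coding RNA just inside, was at 26.0 ± 7.28 and 37.2 ± 10.4 (0.51). For the minimum mean, *PMS2P1*, a pseudogene with near-identical copies whose reads may be shared, and the unnamed ENSG00000290007 lay just inside with means of 11.2 and 12.3, and ENSG00000279168 and *ASIC3* just outside with 9.96 and 8.26.

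The deposited table held 374 rows in the 7q22-q31 block and 238 in the 7q36 block. Of these, 385 were under the minimum mean, 246 of them at 0 in all 6 libraries and 139 above 0 in at least 1. Among the members, 214 had a mean of at least 10 in both groups, 8 passed the minimum with a resistant mean under 10 and 5 with a parental mean under 10.

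By kind of gene, most members called lower were protein-coding, as were 3015 of the 3244 called lower over all tested genes. This is thus not particular to the blocks. In the 7q22-q31 block 83 of 125 coding genes were called lower (median -0.52), and in the 7q36 block 40 of 56 (median -0.52), against 65 of 115 between the blocks (median -0.39) and 2721 of 12905 on other chromosomes (median -0.01). Long non-coding RNAs had unlike medians, a difference that was not tested, with a median of -0.52 for 19 of the 7q22-q31 block and 0.05 for 17 of the 7q36 block, beside 0.29 for 25 between them and 0.23 for 2072 on other chromosomes. Their values were low, with a median over genes of 66.3 in the first block and 99.1 in the second, against 691 and 1134 for coding genes. The library kit does not mark strand, so reads from overlapping genes cannot be told apart, and the annotated spans of 92 members of the 7q22-q31 block and 35 of the 7q36 block overlapped that of another tested gene.

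The members with the highest values were nearly all lower, and they serve basic functions of the cell. *MCM7*, a subunit of the helicase that unwinds DNA at replication forks (ENSG00000166508, chr7:100092233-100101940, minus strand), had values of 23162, 22096 and 23238 in parental libraries 1, 2 and 3 and 14399, 13182 and 14410 in resistant libraries 7, 8 and 9. The groups did not overlap, and the log2 fold change was -0.71 (standard error 0.06). *GNB2*, a beta subunit of heterotrimeric G proteins (ENSG00000172354, chr7:100673567-100679174), had values of 11611, 11274 and 10948 in parental and 6894, 6599 and 6958 in resistant libraries (-0.73, standard error 0.06). For *CUX1*, a homeobox transcription factor (ENSG00000257923, chr7:101815904-102283958), the values were 8160, 8305 and 8337 against 5079, 5540 and 5058 (-0.66, standard error 0.06). Both genes had every resistant library below every parental one. *SRRT*, which links the RNA cap-binding complex to RNA processing, was at 7411, 7061 and 7745 and at 5390, 4936 and 5918 (-0.45, standard error 0.08). The exception was *TRRAP*, a scaffold of histone acetyltransferase complexes, with 8836, 8127 and 8867 in parental and 8224, 8310 and 6716 in resistant libraries. Its groups overlapped, and the log2 fold change of -0.16 (standard error 0.09) was not called.

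In the 7q36 block *REPIN1*, a zinc finger protein that binds origin DNA (ENSG00000214022, chr7:150368189-150374044), had the highest mean. Its values were 13522, 13676 and 13757 in parental and 7662, 7447 and 7564 in resistant libraries, a log2 fold change of -0.85 (standard error 0.05). *SLC4A2*, a chloride and bicarbonate exchanger, was at 9304, 8840 and 9588 against 5948, 6020 and 5975 (-0.63, standard error 0.06). Both had groups far apart compared with the spread within them. *PDIA4*, a disulfide isomerase of the endoplasmic reticulum, changed less, from 10359, 9616 and 9869 to 8183, 7522 and 8869 (-0.28, standard error 0.07), and *UBE3C*, a ubiquitin ligase, went from 6965, 7019 and 7115 to 6186, 5584 and 5554 (-0.29, standard error 0.06). *INSIG1*, which retains the sterol sensor SCAP in the endoplasmic reticulum, had a wide parental spread, with 6756, 9924 and 6666 against 4937, 5905 and 5593 (-0.48, standard error 0.14). These 3 were called lower, but the call was lost for *PDIA4* under quantile normalization or without the intensity trend, and for *INSIG1* without that trend or without resistant library 7 (-0.41).

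**Figure D4:**
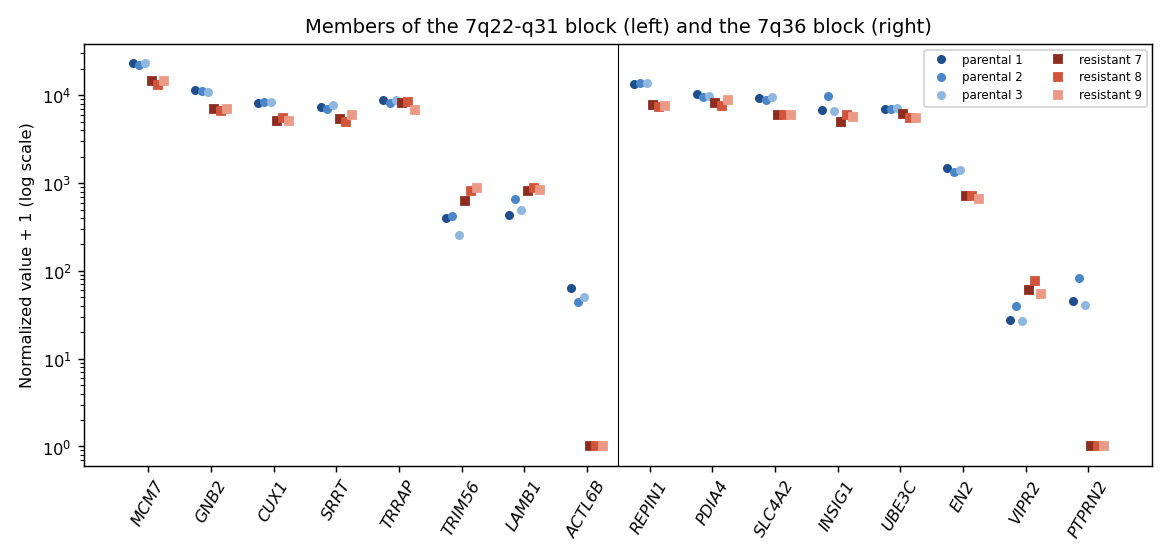
Normalized value plus 1 on a log axis of 16 members in each library (circles parental, squares resistant), the 7q22-q31 block left of the line and the 7q36 block right of it. Most lie a little lower in every resistant library, *TRIM56*, *LAMB1* and *VIPR2* lie higher, and *ACTL6B* and *PTPRN2* drop to 0 in each resistant library.

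A few members departed much further from the block medians, nearly all at low values. *ACTL6B*, the neuron-specific actin-related subunit of the BAF chromatin remodelling complex (ENSG00000077080, chr7:100643097-100656448, minus strand), had values of 63.5, 43.6 and 48.9 in parental libraries, and each resistant library listed it at 0. *PTPRN2*, a receptor-type phosphatase of dense-core secretory granules (ENSG00000155093, chr7:157539056-158587823, minus strand), had 44.7, 81.4 and 39.7 in parental libraries and was likewise listed at 0 in the 3 resistant ones. These were the 2 members of 227 at 0 in every resistant library, beside 31 such genes of all 16347, and none was at 0 in every parental library. The unnamed coding gene ENSG00000284292, a readthrough model spanning *ARPC1A* and *ARPC1B* whose reads may be shared with them, named after its values were seen, was at 91.0, 82.1 and 87.7 and then 2.88, 13.3 and 2.97. *GPR85*, an orphan receptor of the brain, was at 101, 30.8 and 82.5 and then 5.23, 13.4 and 10.8. *VGF*, the precursor of neuroendocrine peptides, was at 36.8, 36.2 and 26.0 and then 6.36, 7.40 and 6.56. *NOS3*, the endothelial nitric oxide synthase, was at 13.6, 66.3 and 30.6 and then 1.46, 6.29 and 6.55. All of these had groups that did not overlap, as had *TFR2*, a transferrin receptor, with means of 42.0 ± 5.12 and 12.04 ± 5.72, and *LHFPL3*, with 23.4 ± 5.78 and 6.24 ± 3.64 (SD, n = 3 each). The value of 3 reads lay between 2.67 and 3.23 in these libraries, so at this depth the values of *NOS3* in resistant cells rest on few reads. *ACTL6B*, *PTPRN2*, ENSG00000284292, *GPR85*, *VGF*, *NOS3* and *LHFPL3* had resistant means under 10 and passed the minimum only through their parental values. The blocks were also chosen for lower values, so nothing is read from the number or size of these drops.

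In the 7q36 block *EN2*, a homeobox factor of the mid-hindbrain boundary whose promoter is shown above (ENSG00000164778, chr7:155458129-155464831), was at 1499, 1324 and 1400 in parental and 711, 710 and 665 in resistant libraries (-1.02, standard error 0.08). Its neighbour *CNPY1* was at 275, 511 and 353 against 98.7, 277 and 148 (-1.20, standard error 0.34). The groups of *EN2* lay apart and those of *CNPY1* overlapped at 1 value. *CHPF2*, an enzyme of chondroitin sulfate synthesis, was at 1423, 1464 and 1800 against 760, 664 and 869 (-1.03, standard error 0.12).

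Members that were called higher were 7 of 227, beside 17.8% of all tested genes. The blocks were chosen for lower values, so nothing is read from this difference. *TRIM56*, a ubiquitin ligase of innate immune signalling (ENSG00000169871, chr7:101085481-101097967), had values of 401, 419 and 253 in parental and 622, 804 and 869 in resistant libraries (1.11, standard error 0.19). *LAMB1*, a laminin chain of the basement membrane, had 433, 661 and 487 and then 822, 877 and 838 (0.70, standard error 0.14), and it overlaps *DLD* on the other strand. *VIPR2*, a receptor for vasoactive intestinal peptide (ENSG00000106018, chr7:159028175-159144867, minus strand), had 26.6, 39.0 and 26.2 and then 59.0, 75.9 and 53.3 (1.02, standard error 0.28). In these 3 every resistant library was above every parental one, but *VIPR2* was no longer called without parental library 3 (0.92) or resistant library 8 (0.88). The other 4, named after their values were seen, were *HBP1* (0.41), *ZCWPW1* (0.68), ENSG00000205236 (1.60) and the antisense transcript *PRKAG2-AS1* (0.99). *SHH*, the hedgehog ligand, at 12.5, 18.5 and 25.6 against 31.3, 33.3 and 45.3, and *ZNF425*, at 131, 85.4 and 115 against 200, 137 and 116, had fold changes above 0 of 0.96 and 0.43 and were not called.

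Grouped by what their products do, 112 members fell into 10 lists, and 85 were called lower, 27 were not called and 0 were called higher by limma, with 0 also above 0 at an unadjusted p under 0.05. The lists were put together with earlier results of these data known. They cover members alone, so the counts restate the blocks and give no test of a function. The other 115 members are in no list, and every member that was called higher is among them. Among those called higher is *TRIM56*, a ubiquitin ligase that the ubiquitin list leaves out, so the 0 rests on which genes were listed. Over all tested genes 19.8% were called lower and 17.8% higher.

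For replication and chromosome structure, 5 of 7 were called lower (median -0.48). Beside *MCM7* these were *LRWD1*, a partner of the origin recognition complex (2938 ± 157 in parental and 1736 ± 4.85 in resistant libraries), *ORC5*, a subunit of that complex (689 ± 61.0 and 493 ± 32.6), *NCAPG2* of condensin II (4060 ± 231 and 2852 ± 82.8) and *PAXIP1*, an adaptor of the DNA damage response, whose change was small (1911 ± 71.5 and 1667 ± 47.3; SD, n = 3 each). In RNA processing 9 of 12 were called lower (median -0.51), among them *MEPCE*, which caps 7SK RNA (3127 ± 262 and 2172 ± 43.8), and *RBM33* (3382 ± 411 and 2555 ± 229). *SRPK2*, a kinase of splicing factors, moved little, from 2950 ± 135 to 2682 ± 141, and was not called. In chromatin and transcription 6 of 11 were called lower (median -0.32), and 2 large genes with KMT2 symbols lay at or above that median. *KMT2E* was at 4007 ± 117 and 3212 ± 231 and was called, and *KMT2C* was at 5875 ± 722 and 5137 ± 365 with groups that overlapped and was not.

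Genes of membranes and transport were lower with few exceptions. Of 13 for actin, vesicle coats and Golgi traffic, 12 were called lower (median -0.61). They included *ARPC1A* and *ARPC1B*, paralogous subunits of the actin-nucleating ARP2/3 complex, at 6563 ± 95.4 and 4537 ± 372 for the first and 2998 ± 345 and 1629 ± 91.7 for the second, and *ATP6V0E2* of the vacuolar proton pump, at 4503 ± 155 and 2855 ± 97.8. Of 11 genes of metabolism and the endoplasmic reticulum 10 were called lower (median -0.48), with *DNAJB6*, a chaperone, at 3695 ± 358 and 2782 ± 41.7. Of 9 mitochondrial genes 7 were called lower (median -0.42). *ATP5MF*, a subunit of ATP synthase, went from 4738 ± 81.3 to 2600 ± 176, *PMPCB*, which cleaves import signals, went from 2917 ± 155 to 2342 ± 101, and *FASTK*, at 1346 ± 155 and 1235 ± 89.0, overlapped between groups.

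In growth and nutrient signalling 9 of 11 were called lower (median -0.68). *RHEB*, the small GTPase that activates mTORC1, was at 4063, 3800 and 3609 in parental and 2442, 2270 and 2442 in resistant libraries (-0.68, standard error 0.07). *AGAP3*, a GTPase-activating protein for ARF, went from 4645 ± 128 to 2497 ± 146, and *GIGYF1*, a translational repressor, from 2816 ± 391 to 2093 ± 231. Of 10 neural genes that passed the minimum, from 14 in the blocks, 7 were called lower (median -0.89). *KCNH2*, the hERG potassium channel, was at 3837, 4046 and 3738 and then 2062, 2205 and 2397 (-0.80, standard error 0.07), *CDK5*, a kinase of neurons, went from 1312 ± 69.0 to 743 ± 47.7, and *GPC2*, a glypican, from 1544 ± 89.5 to 796 ± 131. *NRCAM*, a neuronal adhesion molecule, was at 2305, 1675 and 1886 in parental and 1927, 2007 and 2105 in resistant libraries. Its groups overlapped, and its fold change of 0.05 was not called. *RELN* (0.25) and *NYAP1* (0.19), at much lower values and named after these were seen, were also above 0 and not called. In ubiquitin and protein turnover 5 of 7 were called lower (median -0.57), with *NUB1* at 1676 ± 217 and 1167 ± 49.8. Zinc finger genes lie in both blocks, and 15 of 21 were called lower (median -0.43), among them *ZKSCAN1* (3664 ± 251 and 2871 ± 9.07), *ZNF282* (2687 ± 127 and 1997 ± 95.8), *ZNF775* (2173 ± 71.6 and 1492 ± 111) and *ZNF655* (1920 ± 126 and 1443 ± 67.4).

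The subunits encoded in the blocks were set beside their partners on other chromosomes, which the choice of the blocks did not use. In 19 complexes, 22 members had a median log2 fold change of -0.60 and 19 were called lower, while 117 partners had a median of -0.11, with 36 called lower (30.8%), 16 higher and 65 not called. Over all tested genes 19.8% were called lower and 17.8% higher, and among genes with a mean of at least 1000, 28.6% were called lower, which is near the share of the partners. The median of the members was below that of the partners in 18 of 19 complexes. The member side of this count was fixed by the choice of the blocks, and no test was made of it. Partners also differed by their own chromosome. Every partner listed on chromosomes 14 and 15 lay above 0, from 0.21 (*PSMC1*) to 1.11 (*AP4S1*). Those on chromosome 12 ranged from -0.95 (*ATP5MC2*) to 0.32 (*KMT2D*). The part of these chromosomes in the partner values was not tested. Of the 117 partners 78 had a fold change below 0, as had 8191 of all 16347 genes and 3335 of the 5685 with a mean of at least 1000.

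In the MCM helicase, *MCM7* (-0.71) stood apart from *MCM2* to *MCM6*, whose median was -0.02 and which ranged from -0.21 to 0.20. By limma, only *MCM2* of these 5 passed the test (-0.21, standard error 0.05, adjusted p = 0.0107). In the origin recognition complex *ORC5* and *LRWD1* (median -0.62) stood beside 5 partners with a median of -0.03, of which 0 were called by limma and 0 had an unadjusted p under 0.05, the lowest being *ORC4* at -0.17 (standard error 0.13, adjusted p = 0.340). The COP9 signalosome, which removes NEDD8 from cullin ligases, had *COPS6* at -0.72 (5813 ± 374 and 3528 ± 81.8; SD, n = 3 each). Its 8 partners had a median of -0.16, with *COPS2* higher (0.59, standard error 0.08, adjusted p = 0.000343 by limma) and *GPS1* and *COPS8* lower.

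Among adaptor complexes of vesicle coats, AP-4 had the widest gap between member and partners of the 19 complexes. It did so through *AP4E1* on chromosome 15 and *AP4S1* on chromosome 14, where the partners in other complexes also lay above 0. *AP4M1* of AP-4, which sorts cargo at the trans-Golgi, was at 1080 ± 56.4 in parental and 650 ± 43.05 in resistant libraries (-0.73), while its partners *AP4E1* (0.82, standard error 0.08, adjusted p = 2.95e-05) and *AP4S1* (1.11, standard error 0.20, adjusted p = 0.00165) rose in the limma fit and *AP4B1* was not called (-0.22). *AP1S1* of AP-1 was at -0.78, and its 3 partners on other chromosomes had a median of -0.19. In the Ragulator, which brings mTORC1 to the lysosome, *LAMTOR4* was at 2173, 2430 and 2314 in parental and 1184, 1120 and 1230 in resistant libraries (-0.97), and its 4 partners had a median of -0.20, with *LAMTOR2* and *LAMTOR5* called lower. *COG5* of the Golgi tethering complex was at -0.59 (2098 ± 119 and 1398 ± 95.6) beside 7 partners with a median of -0.01, 3 of them called higher.

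In transcription and RNA 3' ends, *CPSF4* of the cleavage and polyadenylation factor was at -0.64 (2895 ± 30.2 and 1862 ± 19.2) beside 5 partners with a median of 0.10, and *POLR2J* of RNA polymerase II at -0.74 (1743 ± 43.7 and 1040 ± 40.8) beside 11 partners with a median of -0.23, of which 6 were called lower. *POLR2J* has near-identical copies in the block whose reads may be shared with it. *TAF6* of TFIID was at -0.37 beside 12 partners with a median of 0.04. Of these, *TAF7* (-0.38) and *TAF10* (-0.47) were called lower and lay below *TAF6*, and 2 were called higher.

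In further complexes, too, some partners lay near the member or below it. Of 14 partners of ATP synthase, 7 were called lower and 1 higher, their median was -0.27, and *ATP5MC2* lay below *ATP5MF* (-0.95, against -0.87). In condensin II the partner *SMC2* was lower (-1.003, standard error 0.09, adjusted p = 2.52e-05 by limma) than *NCAPG2* (-0.51). In the ARP2/3 complex 4 of 6 partners were called lower, with a median of -0.32 against -0.71 for *ARPC1A* and *ARPC1B*. For the proteasome ATPases, *PSMC2* was at -0.61 (3403 ± 353 and 2228 ± 209), 3 of its 5 partners were called lower and *PSMC6* higher. AMPK was the exception to the order, with *PRKAG2* at -0.28 (688 ± 69.6 and 567 ± 27.3, not called) and 5 partners with a median of -0.33, of which *PRKAB1* was the lowest (-0.69).

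**Figure D5:**
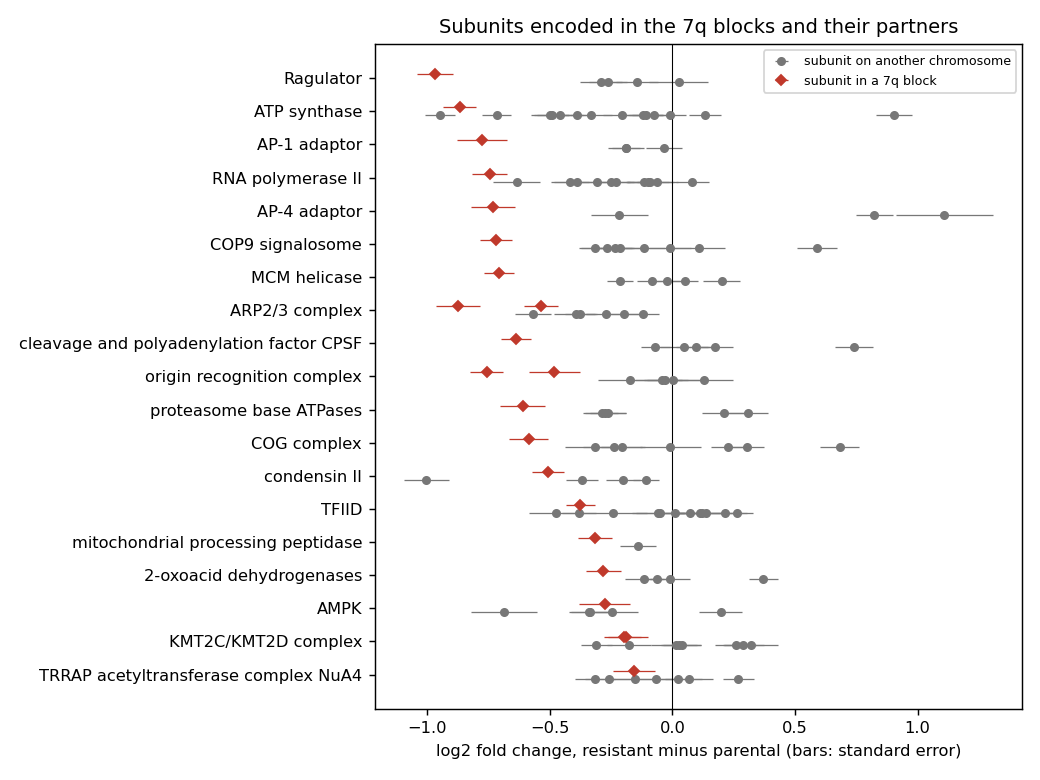
log2 fold change (resistant minus parental, bars standard error) of subunits encoded in the 7q blocks (red diamonds) and of their partners on other chromosomes (grey circles) in 19 complexes. Red points lie between -0.97 and -0.16, and grey points have a median of -0.11 and lie on both sides of 0.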

How the data were processed

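RNA-seq was carried out on 3 libraries of parental and 3 of onvansertib-resistant H526 cells, prepared from total RNA with the NEBNext Ultra kit, which does not mark strand. Per the study's methods and the submitters' processing notes, the authors trimmed reads with Trimmomatic 0.38, aligned and quantified them with RSEM 1.3.1 on GRCh38 with Gencode version 43, and scaled the gene counts with DESeq2 1.30.0. The deposited values are therefore a signal at or above 0 for each gene, scaled between libraries but not per length. Between 55.9% and 64.7% of low values were whole reads (tolerance 0.1), so whole reads could not be recovered and count models were not used.

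Positions came from Gencode version 44 by Ensembl ID, which matched 62639 of 62710 rows after 47 second copies of pseudoautosomal genes were left out. Genes with a mean of at least 10 entered a limma fit (version 3.58.1, R 4.3.3) of log2(value + 1) values (intensity trend, parental against resistant, no covariates) and called at a Benjamini-Hochberg adjusted p under 0.05. Tested on simulated data for this comparison over 16347 genes, the fit called 147 of 200 changed genes, and 3.92% of its calls were unchanged genes. The simulation used normal noise on the log scale without read sampling. It changed far fewer genes than the 3244 called lower and 2917 called higher here, so its rates need not hold for these libraries. For a single gene, 3 libraries against 3 cannot give an exact two-sided permutation p below 0.1. Adjusted p-values measure only the spread between these harvests.

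The members, the lists of roles, complexes and markers, and the motifs were chosen with earlier results of these data known. Genes were named by rule: in each block the 5 lowest and 3 highest fold changes of protein-coding genes with a symbol (readthrough and unnamed genes passed over), the 5 highest means, the genes nearest each limit, and up to 4 genes of a list by highest mean, with complex subunits beside their partners. Exceptions are said to be chosen after their values were seen. As alternatives, the pseudocount was set to 0.1 or 10, the filter was dropped or raised to 50, values were rescaled by TMM or by quantiles, the trend was left off, and each library was left out. Promoter windows came from a RefSeq table and were cut to bases outside annotated exons.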

Additional observations from a re-analysis of the deposited data

How the results depend on the processing

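The counts of members called lower stayed within 1.5 times of 90, 41 and 68 (7q22-q31 block, 7q36 block, genes between) in the 13 alternatives run, and every median stayed below 0. The median of the 7q22-q31 block was -0.47 with a pseudocount of 10, that of the 7q36 block -0.49 with a minimum mean of 50, and that of the genes between them -0.38 with a minimum mean of 50 and -0.32 after quantile normalization. With each library left out the medians ranged from -0.54 to -0.48 in the 7q22-q31 block, from -0.47 to -0.41 in the 7q36 block and from -0.32 to -0.30 between them. Over 73 named genes and 933 alternatives, 895 kept their direction and call, 25 lost the call (9 genes: *GIGYF1*, *LHFPL3*, *DLD*, *PDIA4*, *PAXIP1*, *INSIG1*, *CNPY1*, *RBM33* and *VIPR2*), 7 gained one (4 genes) and 6 changed sign (2 genes). *NRCAM*, at 0.05, became -0.051 without parental library 2 and ranged up to 0.18 with other libraries left out. *MDFIC*, at -0.05, became 0.00316 with a pseudocount of 10 and ranged from -0.73 to 0.52 with single libraries left out. The cause of these moves was not tested.

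No paired analysis was possible because the groups share no replicate numbers. Depth limits the members at low values, where 3 reads were worth 2.67 to 3.23. The resistant cells are 1 derived line, so resistance and the year of culture cannot be told apart.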
